A study of Mus musculus with 3 samples.

Results

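The genes described here are 36 transcripts of glucose breakdown and of the response to low oxygen, followed in tendon cells with and without the ΔF508 mutation of Cftr. They were chosen by name as a gene list, matched by gene ID, and split into 23 glycolytic members (glucose uptake, the enzymes and their regulators, and the handling of lactate and pyruvate) and 13 other hypoxia-induced members. All 36 were listed in the files among 16621 genes. Of these 35 had 10 or more counts in at least 1 library and entered the test with all 23 glycolytic members; Ankrd37, with 4 counts in WT and 7 in each DF508 library, did not. The names of the genes were settled with earlier results of these data known, so counts over the list are descriptions.

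The cells were tail tendon derived stem cells, progenitors grown out of the tendon, from C57BL/6 mice with an age of 10 weeks, and their poly(A) RNA was sequenced. The WT group was 1 library of wild-type cells, and the DF508 group was 2 libraries of cells carrying the CFTRΔF508 mutation, an in-frame loss of a phenylalanine from an epithelial anion channel. All 3 cultures were kept in low-glucose medium with serum, received no treatment, and were collected when confluent at passage 4; the labels name no change in oxygen. Neither the number of animals behind a library nor whether the DF508 libraries were separate cultures is stated. A p-value here therefore measures no more than how far these libraries spread, which may be technical.

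The libraries held 5241826 to 5298326 estimated counts. Over 13365 genes the counts of the DF508 pair gave a chi-square per degree of freedom of 3.57, above the 1 of counting noise, and the pair was kept as separate samples. All 11 tendon fibroblast markers were detected in each library, with Scx, the transcription factor that defines the tendon lineage, at only 11 to 16 counts. The summed level of 16 myeloid markers, all of them detected in every library, was 107 CPM (counts for every 1000000 of the normalized library size) in WT, 165 CPM in DF508 replicate 1 and 763 CPM in DF508 replicate 2. The edgeR test given below called 0.489% of 12888 genes as higher in DF508 and 0.9% as lower. Among 7 markers of smooth muscle or pericytes that were tested, 4 rose and none fell. The summed level of all 8 listed was 499 CPM in WT and 1251 and 1194 CPM in DF508. In the same test none of the 16 myeloid markers passed, and of the 11 tendon fibroblast markers 1 rose and none fell. Of 8 endothelial markers 4 or 5 were at 0 in each library and the sum was 15.1 to 19.5 CPM. Of 7 epithelial markers all were at 0 in WT, and 5 and 6 in DF508. Of 15 G2 and M phase genes 8 rose and none fell in DF508, and their summed level was 547 CPM in WT and 930 and 1035 CPM in the DF508 libraries. Since these are bulk samples, fewer cells of a type and less RNA per cell cannot be told apart.

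Glycolysis splits glucose into pyruvate in the cytosol and yields ATP without oxygen. When oxygen is low, the α subunits of the hypoxia-inducible factors (HIF) escape breakdown, pair with ARNT and switch on many of these genes. Glucose uptake and lactate export then rise, while pyruvate is held back from the citric acid cycle. Tendon is sparsely supplied with vessels, and its cells are known to rely on glycolysis.

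From glucose uptake to lactate export, most glycolytic transcripts had lower values in DF508 than in WT, mostly by less than 2-fold; Pfkfb4 had higher ones. Of the 23 glycolytic members 7 fell (Pfkl, Aldoa, Pfkfb3, Pgk1, Eno1, Slc16a3 and Pdk1), none rose and 16 did not pass the threshold, in a test that called 0.9% of 12888 genes as lower and 0.489% as higher (edgeR's quasi-likelihood test with Benjamini-Hochberg adjustment, adjusted p under 0.05). Of 12 tested other hypoxia-induced members 1 fell, Bnip3, and 11 did not pass. The median log2 fold change was -0.47 over the glycolytic and -0.40 over the other hypoxia-induced members, and 0.01 over all genes tested. The medians of the single-library log2 difference from WT were -0.50 and -0.49 in DF508 replicate 1, and -0.40 and -0.32 in replicate 2. The myeloid sum was 165 CPM in replicate 1 and 763 CPM in replicate 2. The part of the myeloid markers, the smooth muscle markers and the G2 and M phase genes in the result was not tested.

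The calls depended on the model. With DESeq2's Wald test, which called 0.318% of genes as lower, 3 of the 8 members passed (Pgk1, Aldoa and Bnip3), and with limma-voom all 8 passed together with Pgam1, against 1.06% of genes. With library totals in place of TMM scaling, or without a filter on low counts, edgeR called no gene at all. In those fits 1253 and 1123 genes had an unadjusted p under 0.05, among them 15 glycolytic members in each, and the glycolytic median was -0.42 and -0.47.

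Read by position alone, 32 of the 35 members with enough counts were lower than WT in both DF508 libraries, as were 36.4% of 12943 genes with such counts. Only Pfkfb4 was higher in both (36.2% of genes were), and Car9 and Ndrg1 had WT between the DF508 libraries. On library totals or FPKM the number was 31, since Hk2 then equalled or exceeded WT in replicate 1. At 1.2-fold or more, a limit chosen after the values were seen, 24 members were lower in both, against 10.8% of genes. A difference of at least 1.5-fold in both libraries was reached by 8 members that were lower (Aldoc, Pfkfb3, Pgk1, Eno2, Slc16a3, Pdk1, Bnip3 and Fam162a), against 2.94% of genes, and by Pfkfb4 among those that were higher, against 5.0%. For 24 members the exact 95% interval of the ratio to WT lay below 1 in both libraries, as it did for 7.41% of 12943 genes. These intervals cover counting error only and are narrower for abundant genes, and the 12943 genes were not matched to the members by level.

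Levels between genes are given as FPKM (fragments scaled to depth and to the length of the gene), which allows for gene length. Among the glycolytic members Gapdh stood highest at 1579 FPKM in WT and 1278 and 1345 FPKM in the DF508 libraries, followed by Pkm, Eno1 and Aldoa in each library. Pfkfb4 stood lowest of them in WT at 1.5 FPKM, with 2.53 FPKM in each DF508 library, where Aldoc was lower (1.58 and 2.37 FPKM). Together the 23 glycolytic members made up 0.811% of all counts in WT, 0.611% in DF508 replicate 1 and 0.634% in replicate 2. Their summed FPKM was 4573 in WT and 3458 and 3606 in the DF508 libraries.

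**Figure D1:**
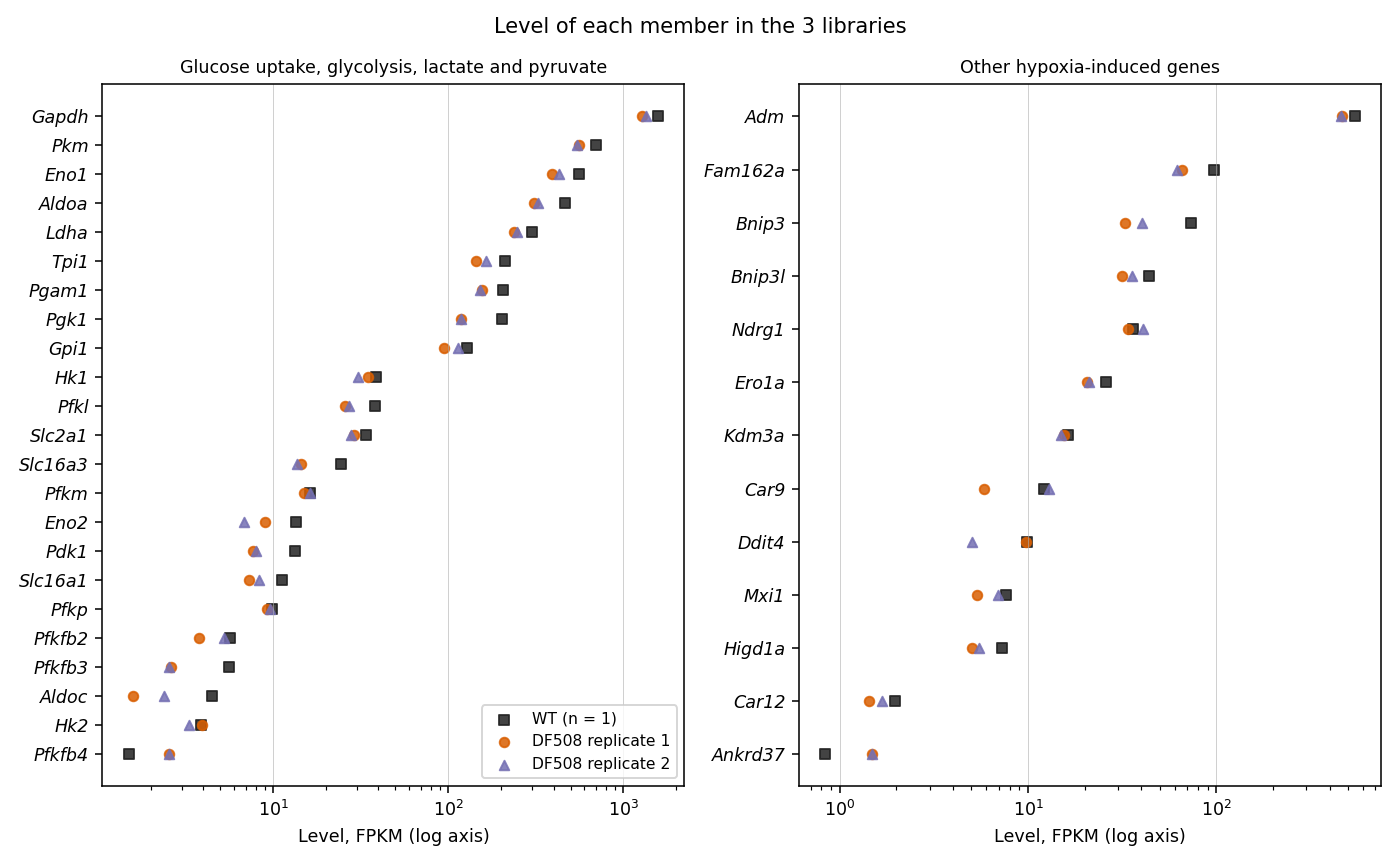
Level of each of the 36 members in FPKM (horizontal, log axis) in the WT library (square) and DF508 replicates 1 (circle) and 2 (triangle), with genes ordered by their WT level. In most rows both DF508 symbols lie left of the square; Pfkfb4 and Ankrd37 lie to the right, and Car9 and Ddit4 show DF508 libraries that stand apart.

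Glucose enters through Slc2a1 (the transporter GLUT1, gene ID 20525), which had 88.9 CPM in WT and 74 and 70.6 CPM in the DF508 libraries. Both DF508 values lay under the WT value, but the 1.23-fold difference did not pass (edgeR adjusted p = 0.309). The hexokinases, which trap glucose by phosphorylation, gave small differences. In the order WT, DF508 replicate 1, DF508 replicate 2, used from here on, Hk1 had 166, 145 and 126 CPM (adjusted p = 0.374), and Hk2 had 22, 21.6 and 18.3 CPM (adjusted p = 0.864). Hk1 supplied 90.9% of the summed FPKM of Hk1 and Hk2 in WT and 89.9% and 90.2% in DF508.

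Phosphofructokinase catalyses the committed step, and it has 3 subunit genes. The liver-type subunit Pfkl (gene ID 18641) had 147 CPM in WT and 95.8 and 101 CPM in DF508. It was 1.5-fold lower (log2 fold change -0.58 ± 0.11 SE, edgeR adjusted p = 0.0404; adjusted p = 0.485 with DESeq2). The muscle-type Pfkm had 48, 43 and 45.7 CPM and the platelet-type Pfkp 40.1, 36.5 and 37.9 CPM, with log2 fold changes of -0.12 and -0.11 that did not pass (adjusted p = 0.81 and 0.841). Pfkl thus supplied 59.5% of the summed phosphofructokinase FPKM in WT and 51.5% and 51.3% in the DF508 libraries. Whether the subunits differ in their response was not tested.

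The remaining upper steps are Gpi1, which makes fructose-6-phosphate, the aldolases, which split the sugar, and Tpi1, which interconverts the products. Aldoa (gene ID 11674) had 716 CPM in WT and 462 and 483 CPM in DF508, and was 1.52-fold lower (log2 fold change -0.60 ± 0.09 SE, edgeR adjusted p = 0.0222; 0.00958 with DESeq2). Its brain-type relative Aldoc supplied only 1.0% of aldolase FPKM in WT. Aldoc had 40 counts in WT and 14 and 21 in DF508, and its fitted value, 2.32-fold lower, did not pass (adjusted p = 0.316). Tpi1 had 341, 228 and 259 CPM (1.4-fold lower, adjusted p = 0.0893) and Gpi1 373, 269 and 321 CPM (adjusted p = 0.288). The ratio of Gpi1 to WT was 0.72 (95% counting interval 0.672 to 0.771) in replicate 1 and 0.86 (0.805 to 0.918) in replicate 2, so replicate 1 was the lower of the pair.

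The PFKFB enzymes make and remove fructose bisphosphate that activates phosphofructokinase, and here their values lay on both sides of WT. Pfkfb3 (gene ID 170768), the form with the strongest kinase activity, had 28.4 CPM in WT and 13.3 and 12.5 CPM in DF508. It was the only member at least 2-fold lower in both DF508 libraries, as were 0.827% of genes (log2 fold change -1.14 ± 0.21 SE, edgeR adjusted p = 0.0404; 0.783 with DESeq2). Pfkfb4, a relative that is also known as a hypoxia-induced gene, had 27 counts in WT and 45 in each DF508 library. Its ratio to WT was 1.64 (0.993 to 2.74) and 1.63 (0.99 to 2.73), intervals that include 1, and it did not pass (log2 fold change 0.70 ± 0.36 SE, adjusted p = 0.487). Pfkfb2 lay between, with 34.7, 24.4 and 27.6 CPM (adjusted p = 0.4). Of the summed FPKM of Pfkfb2, Pfkfb3 and Pfkfb4, Pfkfb3 supplied 43.8% in WT and 29.1% and 24.7% in DF508. Pfkfb4 supplied 11.7% in WT and 28.4% and 24.5% in DF508. The relative Pfkfb1, which is not a member, is left out of this sum. With 9, 25 and 23 counts, Pfkfb1 had 0.99, 2.79 and 2.56 FPKM and did not pass (edgeR adjusted p = 0.403). Pfkfb2 and Pfkfb3 share reads with another gene or copy, so their values are uncertain.

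**Figure D2:**
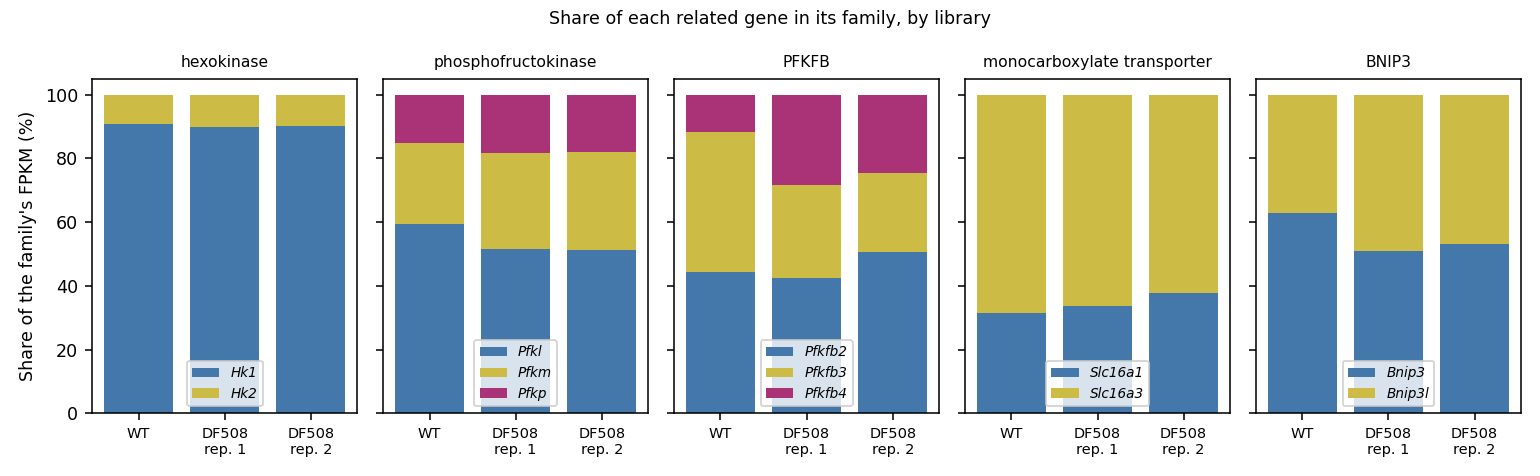
Stacked bars of the share of each member in the summed FPKM of the members of its family (vertical, percent), in 5 families. Bars are for WT and DF508 replicates 1 and 2, and relatives that are not members are left out. Hexokinase shares were alike in the 3 libraries, while Pfkl, Pfkfb3 and Bnip3 took smaller shares in both DF508 libraries than in WT.

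In the lower steps, which yield ATP and NADH, Pgk1 and Eno1 fell. Pgk1 (gene ID 18655), the first ATP-yielding enzyme, had 374 CPM in WT and 212 and 211 CPM in DF508 and lay 1.77-fold lower (log2 fold change -0.82 ± 0.10 SE, edgeR adjusted p = 0.00937; 0.000638 with DESeq2). Eno1 (gene ID 13806), the main enolase, had 1037 CPM in WT and 709 and 774 CPM in DF508. It was 1.4-fold lower (adjusted p = 0.049) and did not pass with DESeq2 (adjusted p = 0.0797), upper-quartile scaling (0.0763) or a mean of at least 50 counts (0.0634). The neuronal enolase Eno2 had 36.9, 23.7 and 17.9 CPM, 1.77-fold lower without passing (adjusted p = 0.127).

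The other lower-step enzymes gave smaller differences with narrow counting intervals. Pgam1 had 390, 285 and 279 CPM (1.38-fold lower, adjusted p = 0.0621; 0.0413 with limma-voom). Pkm, the pyruvate kinase, had 1745, 1353 and 1319 CPM (1.31-fold lower, adjusted p = 0.0709). Gapdh, often used as a reference gene, had 1994, 1566 and 1645 CPM, with ratios to WT of 0.786 (0.763 to 0.809) and 0.825 (0.802 to 0.849), and did not pass (adjusted p = 0.152).

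The fate of pyruvate is set by lactate dehydrogenase, by the monocarboxylate transporters and by pyruvate dehydrogenase kinase, which holds pyruvate back from the citric acid cycle. Ldha had 508 CPM in WT and 388 and 404 CPM in DF508 (1.28-fold lower, adjusted p = 0.149). Slc16a3 (gene ID 80879), the lactate exporter MCT4, had 62.1 CPM in WT and 35.2 and 33.2 CPM in DF508. It was 1.82-fold lower (log2 fold change -0.86 ± 0.13 SE, edgeR adjusted p = 0.0222; 0.482 with DESeq2).

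Slc16a1, the related transporter MCT1, had 51.3, 32.4 and 36.4 CPM (1.49-fold lower, adjusted p = 0.128). Pdk1 (gene ID 228026) had 70.6 CPM in WT and 39.6 and 40.8 CPM in DF508 and lay 1.76-fold under WT (log2 fold change -0.81 ± 0.12 SE, edgeR adjusted p = 0.0208; 0.472 with DESeq2). All 4 genes of this step had both DF508 values under WT, and 2 of them fell.

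Of the 8 members that fell, 5 (Pfkl, Aldoa, Pfkfb3, Eno1 and Pdk1) share reads with another gene or copy and are uncertain, as are Gpi1, Gapdh, Ldha and Eno2. The other 3, Pgk1, Slc16a3 and Bnip3, had whole counts in every library. In a fit without genes that share reads they kept adjusted p-values of 0.0253 (Pgk1), 0.0393 (Slc16a3) and 0.0274 (Bnip3).

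Among the other hypoxia-induced members, 1 of 4 mitochondrial genes fell. Bnip3 (gene ID 12176), a receptor for mitophagy, had 132 CPM in WT and 56.8 and 69.8 CPM in DF508. It was 2.08-fold lower (log2 fold change -1.06 ± 0.13 SE, edgeR adjusted p = 0.0111; 0.00986 with DESeq2). Its close relative Bnip3l (NIX) had 145, 102 and 115 CPM and was 1.34-fold lower without passing (adjusted p = 0.155).

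Bnip3 supplied 62.8% of the pair's FPKM in WT and 50.9% and 53.1% in DF508. Fam162a, a mitochondrial protein linked to cell death in hypoxia, had 60.2, 39.4 and 37.4 CPM (1.57-fold lower, adjusted p = 0.0569). Higd1a, an inner membrane protein of the respiratory chain, had 13.9, 9.28 and 10.2 CPM (adjusted p = 0.49). All 4 mitochondrial genes had both DF508 values under WT.

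The acid-handling, growth-restraining and signalling members varied more between the DF508 libraries. Car9, a cell-surface carbonic anhydrase often used as a marker of hypoxia, had 24.3 CPM in WT, 11.4 CPM in DF508 replicate 1 and 24.9 CPM in replicate 2. Replicate 1 was therefore low and replicate 2 level with WT (log2 fold change -0.42 ± 0.37 SE, adjusted p = 0.727; Car9 shares reads). Ddit4, an inhibitor of mTOR signalling, had 16.8, 16.3 and 8.3 CPM, so here replicate 2 was the low library (adjusted p = 0.689). Mxi1, a Myc antagonist, had 39.9, 27.1 and 35.5 CPM (adjusted p = 0.523), and Car12 7.52, 5.3 and 6.23 CPM (adjusted p = 0.759).

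Adm, which encodes the vessel-dilating peptide adrenomedullin, was by far the most abundant of the other hypoxia-induced members, at 543, 464 and 457 FPKM. On counts it had 757, 629 and 617 CPM (1.21-fold lower, adjusted p = 0.234), and it shares reads. Ero1a, the oxidase that drives disulfide formation in the endoplasmic reticulum, had 118, 90.5 and 92.8 CPM (1.29-fold lower, adjusted p = 0.185). The histone demethylase Kdm3a had 81, 74.8 and 71.7 CPM (adjusted p = 0.681). Ndrg1, widely used as a hypoxia-induced gene, had 108 CPM in WT and 98.3 and 118 CPM in DF508, on either side of WT (adjusted p = 0.995).

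**Figure D3:**
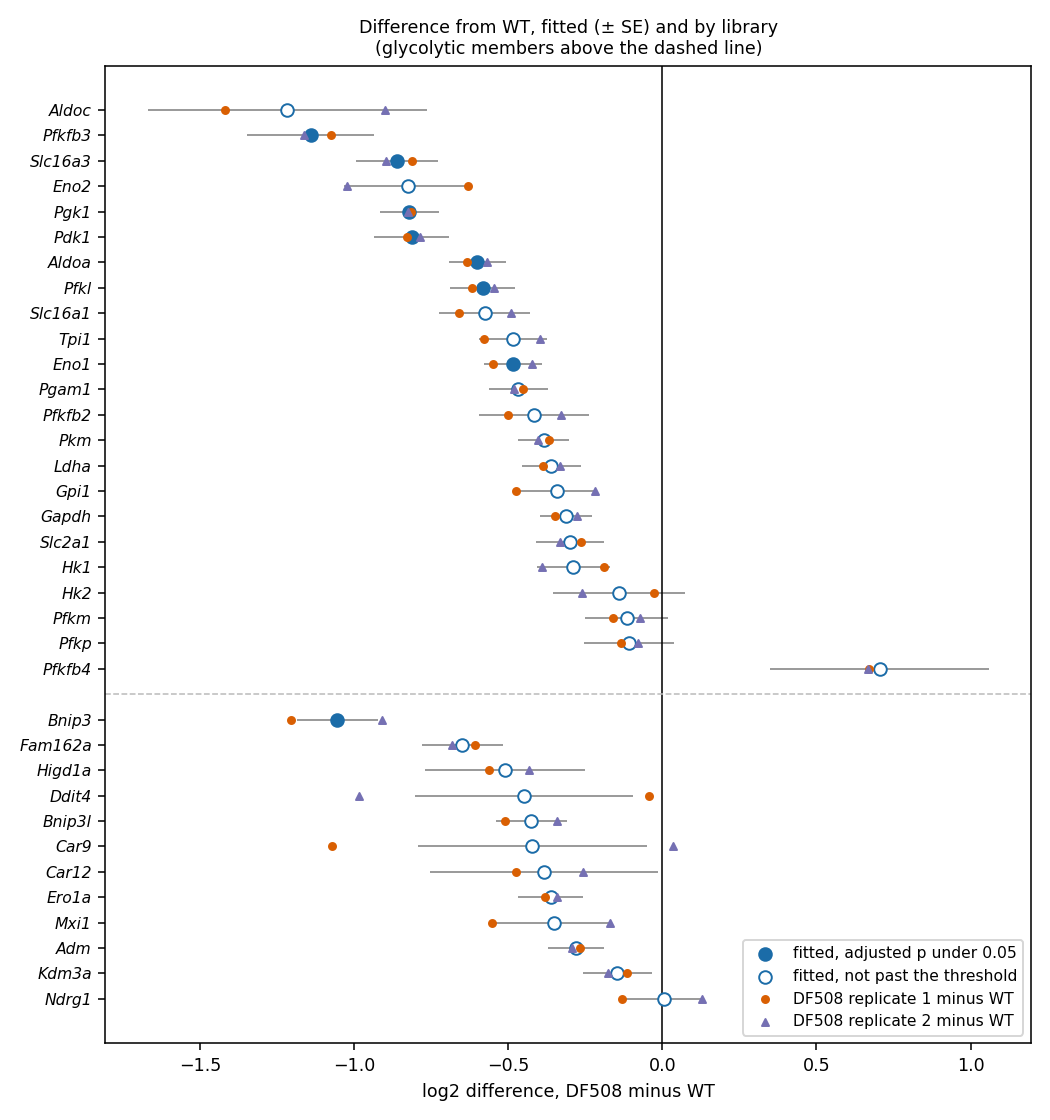
Log2 difference from WT (horizontal) for the 35 tested members, as the fitted value with its SE (large circles, filled where the adjusted p was under 0.05) and for DF508 replicates 1 and 2 singly (small symbols). The 7 glycolytic members that fell and Bnip3 are filled; Car9 and Ddit4 have the DF508 libraries far apart, and Pfkfb4 lies to the right of 0.

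The size of the difference from WT can be set against the difference between the DF508 libraries. The median absolute log2 difference between the DF508 libraries was 0.08 over the glycolytic members, 0.19 over the other hypoxia-induced members and 0.16 over all genes tested. The median absolute log2 fold change from WT was 0.48, 0.40 and 0.18 for the same sets. Glycolytic genes are mostly abundant, and abundant genes have less counting error, but the part of counting error in these spreads was not tested. The other hypoxia-induced members had the wider spread within DF508, and among them Car9 and Ddit4 had the DF508 libraries far apart. With 1 WT library the spread within WT was not measured.

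HIF binds a short core, which is ACGTG or, with the first base changed, GCGTG. These letters were searched on both strands in windows from 250 bases before to 50 bases after each annotated start, taken from RefSeq on GRCm38.p6, a later build than the mm9 genome of the files. Windows were found for 34 of the 36 members, not for Bnip3l and Ndrg1. ACGTG was present in at least 1 window of 23 of these 34 genes (67.6%), of 29.2% of 10221 tested genes with a window and of 21.8% of all 27025 genes with one.

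Members had more annotated starts per gene, and counted by window the shares were 52.8% for members and 25.1% for tested genes. GCGTG was present in 67.6% of members and 55.5% of tested genes. Many of the genes are known hypoxia targets, so a higher share says nothing about the DF508 difference. Of the 8 members that fell, 5 held ACGTG (Pgk1, Bnip3, Pfkfb3, Slc16a3 and Aldoa); Pfkl, Pdk1 and Eno1 held GCGTG alone. The palindrome CACGTG, which reads as ACGTG on both strands and is also the E-box bound by Myc, was present in Bnip3 and Pfkfb3 among these.

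The 250 bases before the start are printed for 4 members that fell and held ACGTG and for Pfkfb4, the member that was higher. They read 5′ to 3′ toward the start in lower case, with ACGTG and its reverse complement (CACGT) in capitals, and likewise GCGTG with its own (the run CACGC). A match is a description of the letters, not a measured binding site.
Pgk1 (chrX:106186850-106187099, GRCm38.p6, plus strand): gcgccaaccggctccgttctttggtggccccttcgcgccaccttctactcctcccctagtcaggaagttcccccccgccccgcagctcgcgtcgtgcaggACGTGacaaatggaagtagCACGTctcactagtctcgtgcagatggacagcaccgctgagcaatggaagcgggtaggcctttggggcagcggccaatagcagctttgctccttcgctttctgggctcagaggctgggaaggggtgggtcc
Bnip3 (chr7:138909507-138909756, GRCm38.p6, minus strand): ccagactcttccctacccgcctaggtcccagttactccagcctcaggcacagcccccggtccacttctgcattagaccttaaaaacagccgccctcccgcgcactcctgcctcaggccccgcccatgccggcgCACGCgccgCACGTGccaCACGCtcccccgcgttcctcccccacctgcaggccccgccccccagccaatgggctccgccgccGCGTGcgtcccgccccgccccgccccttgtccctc
Pfkfb3 (chr2:11553930-11554179, GRCm38.p6, minus strand): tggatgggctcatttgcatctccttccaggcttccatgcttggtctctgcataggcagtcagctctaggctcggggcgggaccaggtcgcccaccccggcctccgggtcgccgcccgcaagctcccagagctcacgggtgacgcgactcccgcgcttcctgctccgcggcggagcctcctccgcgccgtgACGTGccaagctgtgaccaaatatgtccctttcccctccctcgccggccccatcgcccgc
Slc16a3 (chr11:120948817-120949066, GRCm38.p6, plus strand): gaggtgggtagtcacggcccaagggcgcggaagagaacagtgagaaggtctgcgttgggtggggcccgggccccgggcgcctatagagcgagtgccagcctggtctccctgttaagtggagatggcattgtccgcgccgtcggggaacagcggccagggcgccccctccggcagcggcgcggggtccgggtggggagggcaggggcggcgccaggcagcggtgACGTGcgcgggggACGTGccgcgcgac
Pfkfb4 (chr9:108991652-108991901, GRCm38.p6, plus strand): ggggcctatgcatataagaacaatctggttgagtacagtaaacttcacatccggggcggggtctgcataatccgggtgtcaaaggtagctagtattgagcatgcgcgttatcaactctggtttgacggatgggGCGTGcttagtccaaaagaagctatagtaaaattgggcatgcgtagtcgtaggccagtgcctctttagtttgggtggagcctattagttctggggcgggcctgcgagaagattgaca

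Pgk1 held ACGTG starting 150 bases before the start and its reverse complement at 131 bases. Bnip3 held CACGTG flanked on either side by CACGC, with a further GCGTG at 35 bases. The Pfkfb3 window printed here held ACGTG at 60 bases, and Slc16a3 held it at 27 and at 14 bases. Pfkfb4 held only GCGTG, at 117 bases before the start, but so did Pfkl, Pdk1 and Eno1, which fell. Ldha, which did not pass, held ACGTG.

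Genes in other lists of the same pathways fell in part. These lists, like the members, were chosen with earlier results of these data known, so counts over them are descriptions. Of 37 tested other hypoxia-induced genes 8 fell, none rose and 29 did not pass. Over all genes tested, 0.9% fell and 0.489% rose. Only Dusp1 and Mif, 2 of the 8, also passed with DESeq2, which called 0.318% of genes as lower. All 8 passed with limma-voom, against 1.06% of genes. In the fit without genes that share reads, which leaves out Vegfa, 4 of 7 passed (Dusp1, Mif, Angptl4 and Bhlhe40). That fit called 52 of 9966 genes as lower. The list's median log2 fold change was -0.34, and 28 of 37 values were negative, as were 49.1% over all genes tested. The genes that fell were the adenylate kinase Ak4, the phosphatase Dusp1, Angptl4, the cytokine Mif, the clock repressor Bhlhe40, the collagen prolyl hydroxylase P4ha2, Vegfa and the haem oxygenase Hmox1. Ak4 had 27.8 CPM in WT and 12.7 and 11.1 CPM in DF508 (2.33-fold lower, edgeR adjusted p = 0.0348; 0.678 with DESeq2), and Mif had 215, 124 and 119 CPM (1.77-fold lower, adjusted p = 0.0111). Dusp1 had 336, 179 and 159 CPM (1.98-fold lower, adjusted p = 0.00813) and Angptl4 60.2, 32.6 and 33.6 CPM (1.82-fold lower, adjusted p = 0.0224; 0.505 with DESeq2). Dusp1 is also an immediate early gene, and Hmox1 also responds to oxidative stress.

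The abundant target Lox (9241, 8574 and 8580 CPM) did not pass (adjusted p = 0.586). Among the 7 tested HIF subunits and oxygen sensors 1 fell, against 0.9% of all genes tested. Epas1, which encodes HIF-2α and shares reads, had 281 CPM in WT and 117 and 128 CPM in DF508 (2.3-fold lower, adjusted p = 0.00335). Hif1a had 628, 460 and 458 CPM and did not pass (log2 fold change -0.45 ± 0.09 SE, edgeR adjusted p = 0.0588), although it did with limma-voom (adjusted p = 0.0412), and its partner Arnt had 118, 112 and 101 CPM (adjusted p = 0.681).

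Lists of genes that branch from glycolysis had medians near 0. Of 24 tested other glycolysis and pyruvate genes 1 fell, against 0.9% of all genes tested. It was Pgm1, a phosphoglucomutase that links glycogen to glycolysis. Pgm1 had 112 CPM in WT and 71.8 and 71.7 CPM in DF508 (1.56-fold lower, edgeR adjusted p = 0.0289, and 0.505 with DESeq2). The median of that list was 0.08, with 10 of 24 negative. The most abundant pentose phosphate genes, H6pd (315, 277 and 264 CPM) and Tkt (159, 176 and 177 CPM), lay on opposite sides of WT. In the citric acid cycle Ogdh had 167, 158 and 163 CPM (adjusted p = 0.882). None of 8 pentose phosphate genes (median -0.07) and none of 18 citric acid cycle genes (median -0.02) passed in edgeR's test, nor with DESeq2's Wald test or limma-voom. At an unadjusted p under 0.05 edgeR gave 0 and 2 of them, DESeq2 0 and 0, and limma-voom 1 and 2. Over all 12888 genes tested, both directions together, the same reading gave 1538 with edgeR, 409 with DESeq2 and 1451 with limma-voom. In edgeR's unadjusted reading 19 glycolytic members were lower, against 6.08% of all genes tested.

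**Figure D4:**
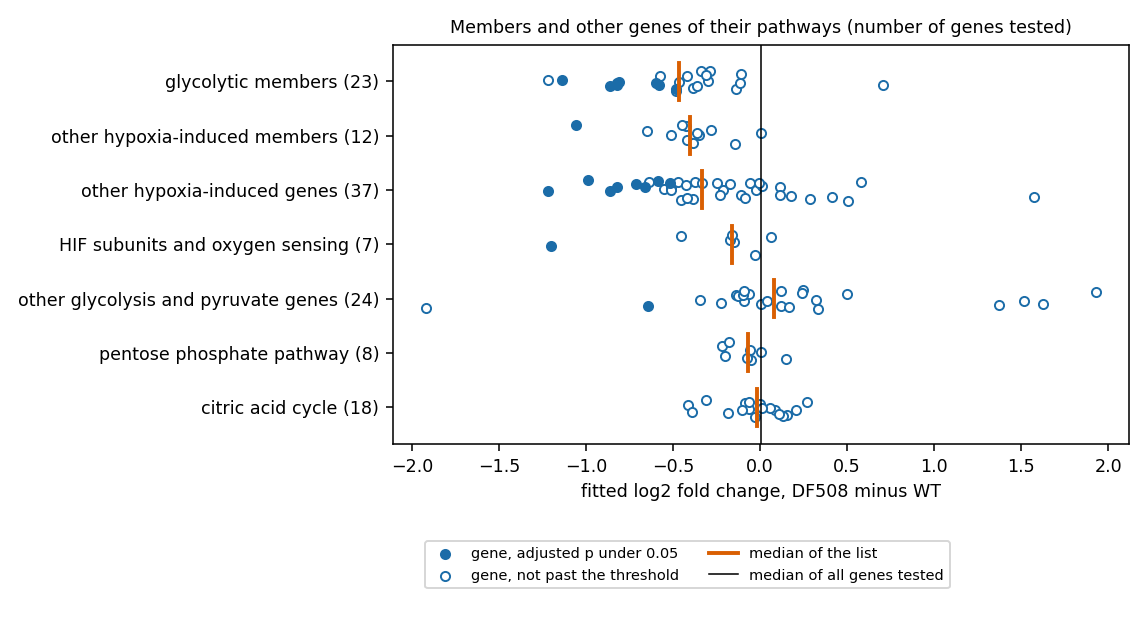
Fitted log2 fold change (horizontal) of each tested gene in the members and in 5 lists of related pathways, with the number tested in brackets, filled where the adjusted p was under 0.05. Orange bars are list medians and the black line is the median of all genes tested (0.01); the medians of the glycolytic (-0.47), other hypoxia-induced members (-0.40) and other hypoxia-induced genes (-0.34) lie left of it, and those of the pentose phosphate and citric acid lists lie close to it.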

How the data were processed

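Per the submitters' processing notes, reads were handled with Bowtie and RSEM on mm9; neither versions nor the annotation release are given there. Per the file headers, each library's table gives the deposited expected count (RSEM's estimate of reads, not normalized), the deposited FPKM (which the authors scaled to gene length and depth) and gene length. A gene not listed was set to 0. Strand use is not stated, so reads of overlapping or antisense partners may be mixed.

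Expected counts were rounded. Symbols came from a RefSeq table of GRCm38.p6, which held 16579 of 16621 gene IDs (99.7%). A gene with an estimate not whole within 0.005 in any library was taken to share reads.

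Genotype was tested with edgeR 4.0.16 (R 4.3.3; quasi-likelihood, TMM, filterByExpr) over all 3 libraries, with p-values adjusted over 12888 genes. The DF508 pair leaves 1 residual degree of freedom, beside 7.72 prior ones; WT was assumed to vary like that pair. SE is the fold change over the square root of F. Single-library log2 differences used a prior count of 2. The edgeR fit was tried on counts simulated with the same spread in both genotypes. Whether WT varies like the DF508 pair was therefore not tested. DESeq2 1.42.0 and limma 3.58.1 were alternatives. Members and lists were chosen with earlier results of these data known. Values in every library are given for members past the threshold or with 100 CPM or more on average, and by level within a role otherwise; of other lists, up to 4 genes past the threshold by size, or up to 2 by level. Genes named beyond these were chosen after their values were seen. Sequences are from RefSeq.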

Additional observations from a re-analysis of the deposited data

How the results depend on the processing

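The 7 glycolytic members that fell became 0 with library totals, no filter, log2(FPKM + 1) or log2(FPKM + 0.1), 2 with DESeq2's Wald test, 2 without genes that share reads, 4 when enzymes alone were counted and, in a reading chosen after seeing the data, 19 at an unadjusted p under 0.05. The 1 other hypoxia-induced member that fell became 0 under the first 4 of these and 5 at an unadjusted p. At that unadjusted p 6.08% of 12888 genes tested were lower, beside 19 of 23 glycolytic and 5 of 12 other hypoxia-induced members. Over all genes the 179 calls became 0 under the same 4 settings, with 1123 to 1253 genes at an unadjusted p under 0.05. They became 63 with DESeq2 and 71 without genes that share reads. The cause was not tested, except that the last setting and the enzymes alone hold fewer genes.

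Both medians were negative in every setting run; the glycolytic one moved to -0.38 without genes that share reads. Over single-library log2 differences from WT, which come from no fit, the glycolytic median was -0.50 to -0.40, and the other hypoxia-induced median -0.49 to -0.32. Counts of calls have no such value, since 1 library against 1 leaves no residual degrees of freedom. By size, 8 members at least 1.5-fold lower became 24 at 1.2-fold (10.8% of genes), and 9 to 12 with 1 DF508 library left out (6.57% and 6.7% of genes for replicates 1 and 2 alone); the 32 lower in both became 32 to 34 (50% and 50.1% of genes; chosen after seeing the data). Car9, with a fitted log2 fold change of -0.42, had single-library log2 differences from WT of -1.07 for DF508 replicate 1 and 0.035 for replicate 2. Ndrg1 had a fitted value of 0.0047 with edgeR and -0.0012 with limma-voom, and single-library differences of -0.13 for replicate 1 and 0.13 for replicate 2. No paired analysis was possible with 1 WT library against 2 DF508 libraries. Depth limits Ankrd37, Aldoc, Car12 and Pfkfb4, with 45 counts or fewer in each library.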
